A study of Auxenochlorella pyrenoidosa with 12 samples.

Results

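A group of 130 contigs of the unicellular green alga Chlorella pyrenoidosa (organism label Auxenochlorella pyrenoidosa) stood at least 2-fold above the untreated control on day 0 of exposure to potassium peroxymonosulfate (PMS) and had lost that rise by day 3. They are 130 of the 30814 contigs in the table of the series. A contig belonged to the group when both of its day 0 libraries held at least 5 FPKM (fragments scaled to contig length and to the library total) and its mean log2(FPKM + 1) on day 0 was at least 1 above both the control and day 3. Its day 12 mean also had to lie less than 1 above the control, which leaves out contigs that were raised again at the end. Day 0 against the control, day 3 against day 0 and day 12 against the control are thus the measured values the members were chosen by, and these 3 differences are given as descriptions that support nothing.

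The treated cultures received 8.49 mg/L PMS, set at 0.5 of the EC50 (median effective concentration) of the acute test, with samples taken from day 0 to day 12 at intervals of 3 days. The control received no PMS. Each of the 6 groups held 2 RNA-seq libraries made from total RNA of whole cells, and the summed FPKM of a library ranged from 487140 to 603105. The control label leaves its sampling day uncertain, and the 12 libraries hold no other control group. Exposure and culture age therefore cannot be told apart wherever a later day is set against the control.

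PMS is a salt of a strong oxidant that is used to disinfect and treat water, and it can act as a source of reactive radicals. In unicellular algae an oxidant typically changes the levels of transcripts for antioxidant defence, protein repair and photosynthesis within minutes to hours, and many such early changes are transient. The table gives each contig only the name that the Trinity assembler gave it and pairs none with a gene, so the members are described here by their levels and courses. Which of them belong to such a defence cannot be read from these names, and no sequence or marker gene was available to check the labelled cell.

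The day 0 rise was modest for most members. It was under 1.5 on the log2(FPKM + 1) scale in 90 of the 130 contigs (69.2%), between 1.5 and 2 in 29, between 2 and 3 in 8 and at least 3 in 3. In FPKM, the day 0 mean was 2.11 to 33.5 times the control mean, with a median ratio of 2.67. The day 0 mean ranged from 5.54 to 587 FPKM with a median of 12.8 FPKM, and the control mean from 0.365 to 266 FPKM with a median of 4.07 FPKM. Tests were run with limma, a linear model that shares its estimate of spread across contigs, on the 17653 contigs that averaged 1 FPKM or more over the 12 libraries, and a contig is called at a Benjamini-Hochberg adjusted p under 0.05. Of the 130, 119 were called higher on day 0, against a background of 8.15% of the 17653 tested contigs, a count from which nothing is read because the same difference chose the contigs.

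**Figure D1:**
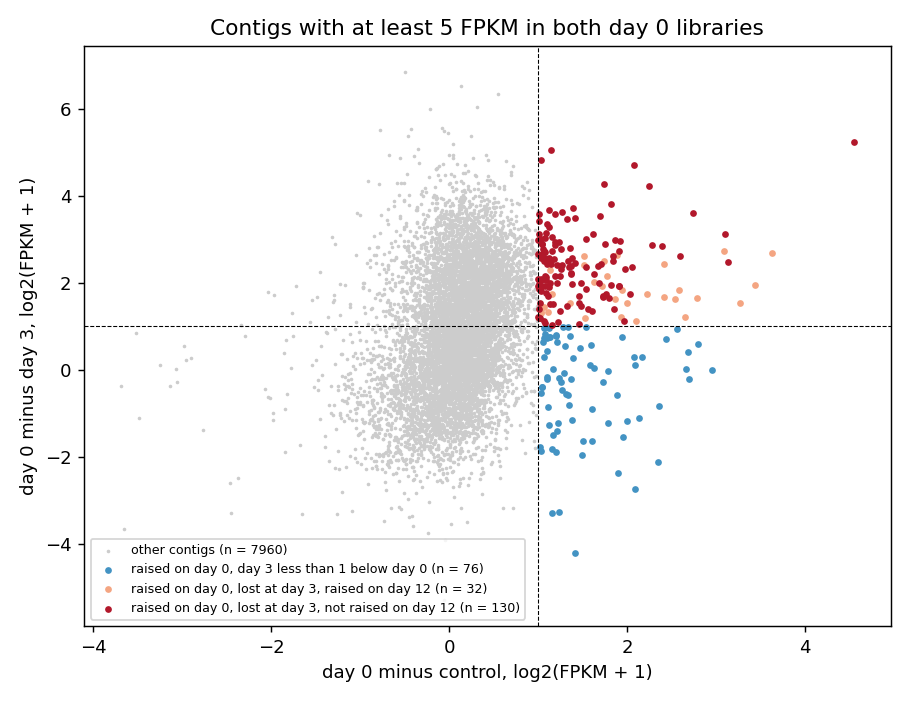
Each point is 1 of the contigs with at least 5 FPKM in both day 0 libraries, with day 0 minus control on the horizontal axis and day 0 minus day 3 on the vertical axis, both as differences of mean log2(FPKM + 1). Dashed lines mark the limits of 1, and the 130 members lie above and to the right of both, many of them close to the vertical limit.

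Many members lay close to the limit on day 0. The lowest member stood 1.0003 above the control, and the nearest contig that failed only this condition stood 0.995 above it. Within 0.1 of the limit there were 41 members inside and 52 contigs outside. The other limits were less crowded. For day 0 minus day 3 the nearest values were 1.04 inside and 0.967 outside, for day 12 minus control 0.850 inside and 1.01 outside, and for the lower day 0 library 5.05 FPKM inside and 4.96 FPKM outside. Membership also depended on the individual day 0 libraries. With only the second day 0 library 241 contigs met the rule, 115 of them members, and with only the first 198 met it, 109 of them members.

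Together the 130 contigs made up a small share of the transcriptome, which was highest on day 0. Their summed FPKM was 0.256% and 0.258% of the library total in the control, 0.674% and 0.663% on day 0, 0.117% and 0.132% on day 3, 0.148% and 0.149% on day 6, 0.185% and 0.200% on day 9, then 0.218% and 0.188% on day 12. The median member stood at 3.82 and 4.27 FPKM in the control libraries, 12.9 and 12.5 FPKM on day 0, 1.37 and 1.30 FPKM on day 3, 1.75 and 1.71 FPKM on day 6, 2.07 and 1.78 FPKM on day 9, and stood at 1.76 and 1.68 FPKM by day 12. The median level was thus below the control in all 8 libraries after day 0. The same held for the median of all 17653 tested contigs, so the direction alone does not set the members apart. For all tested contigs the lower control median, that of library 2, was 4.67 FPKM. Their later medians ranged from 2.35 FPKM (day 3 library 2) to 4.54 FPKM (day 12 library 1). FPKM is a share of the library and not a count per cell, so fewer cells with a transcript and less of it per cell cannot be told apart.

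**Figure D2:**
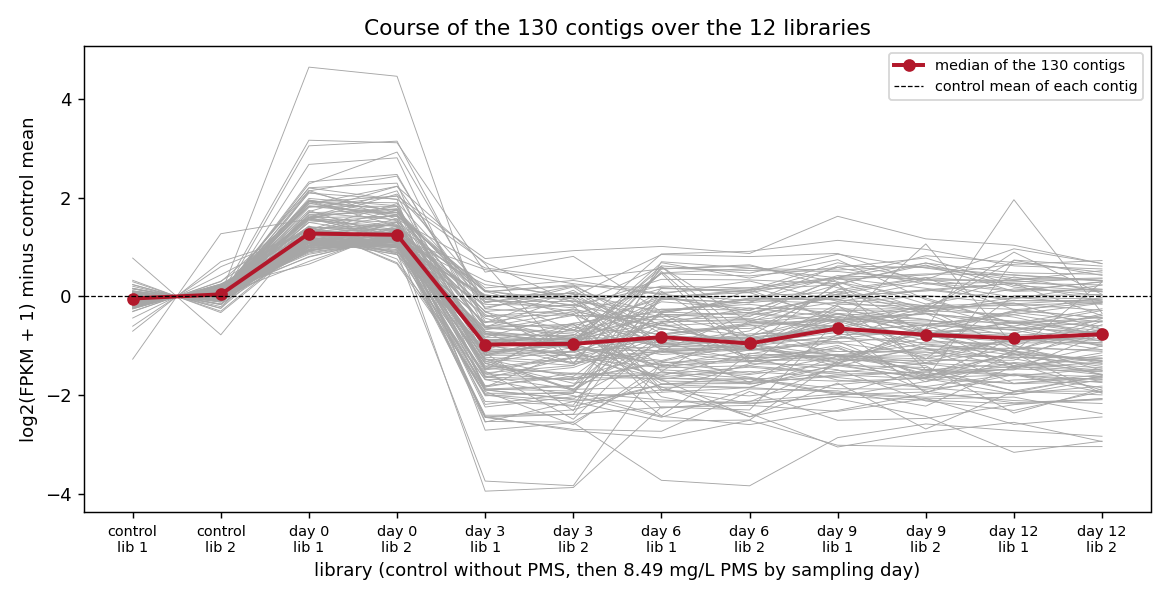
Grey lines show the 130 contigs over the 12 libraries as log2(FPKM + 1) minus the mean of the control libraries, and the red line shows their median in each library. The median lies above the control only in the day 0 libraries and is close to 1 below it on day 3.

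The loss by day 3 was larger than the rise before it in most members. The median of day 3 minus day 0 was -2.42 on the log2 scale, against 1.23 for day 0 minus control. On day 3 the mean of 116 members lay below the control and that of 14 above it, and 65 members lay at least 2-fold below it on the log2(FPKM + 1) scale. Of all 17653 tested contigs, 10498 lay below the control on day 3 and 7049 above it, and 33.0% lay at least 2-fold below it. In FPKM the day 0 mean was a median of 8.38 times the day 3 mean. The lowest ratio of the day 0 mean to a later mean was 1.27 for day 6 and 1.32 for day 9. In 128 members every later treated library lay below both day 0 libraries. In the other 2 members at least 1 later library reached the lower day 0 library. One of these 2 had 38.1 and 6.95 FPKM on day 12, against 28.8 and 22.2 FPKM on day 0, so its day 12 libraries did not resemble each other. The other had 15.2 and 12.2 FPKM on day 12, against 21.3 and 12.1 FPKM on day 0.

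Members that differed by at least 1 on the log2 scale between the libraries of a group made up 3.08% of the group in the control, against 1.90% of all tested contigs, and 5.38% on day 6, against 4.07%. Their share was below that of all tested contigs in the other groups, with 0% against 3.50% on day 0, 1.54% against 9.23% on day 3, 3.85% against 8.16% on day 9, then 1.54% against 3.01% on day 12. The rule asked for at least 5 FPKM in both day 0 libraries and for a low day 3 mean. This favours small differences on days 0 and 3, so nothing is read from those shares. A few members were hardly measured after day 0. Those below 0.01 FPKM numbered 8 and 5 in the day 3 libraries, 4 and 4 on day 6, 3 and 7 on day 9, with 7 in each day 12 library, and none of the members was that low in the control or on day 0.

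The largest gains came from a pair of abundant contigs. TRINITY_DN882_c0_g1_i4_4 had the largest gain of the group in FPKM, with 596 and 568 FPKM in the day 0 libraries, against 199 and 201 FPKM in the control libraries. It then had 67.7 and 75.1 FPKM on day 3, 154 and 159 FPKM on day 6, 201 and 216 FPKM on day 9, and stood at 241 and 187 FPKM by day 12. The day 0 and control libraries did not overlap, the day 3 libraries were the lowest of all 12, and the control values lay within the range of the day 9 and day 12 libraries. It rose by 1.12 (SE 0.11) on the log2 scale on day 6 against day 3 (limma adjusted p = 5.79e-05). On day 6 it was lower than the control (log2 change -0.35, SE 0.11, limma adjusted p = 0.0228), a call that was lost in 5 of 18 alternatives, with adjusted p between 0.00183 and 0.107 over them. The alternatives that lost it were rescaled libraries (0.107) and leaving out control library 1 (0.0772), control library 2 (0.0869), day 6 library 1 (0.0999) or day 6 library 2 (0.0633).

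TRINITY_DN922_c0_g1_i2_2 followed a slower course after the same start. It had 567 and 607 FPKM on day 0, against 271 and 262 FPKM in the control. It had 201 and 205 FPKM on day 3, 128 and 124 FPKM on day 6, 147 and 168 FPKM on day 9, and stood at 213 and 186 FPKM by day 12. All later libraries were below both control libraries, and the lowest were those of day 6 rather than those of day 3. It fell by 0.68 (SE 0.09) on the log2 scale on day 6 against day 3 (limma adjusted p = 0.000311) and was lower on day 6 than in the control, with a value of -1.07 on the log2 scale (SE 0.09, limma adjusted p = 1.06e-05). The 2 contigs held 28.9% and 29.4% of the summed FPKM of the members on day 0, and without them the sum was 2858 and 2822 FPKM on day 0, against 915 and 978 FPKM in the control.

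The members furthest below the control on day 6 ended with little of their early level. TRINITY_DN3314_c0_g1_i1_3 had 239 and 203 FPKM on day 0, against 48.0 and 54.7 FPKM in the control, the third largest gain of the group. It had 6.99 and 7.88 FPKM on day 3, 2.95 and 2.66 FPKM on day 6, 6.20 and 7.72 FPKM on day 9, and stood at 6.94 and 6.34 FPKM by day 12. Every library after day 0 was below both control libraries, and the day 6 libraries were the lowest. On day 6 it was lower than the control (log2 change -3.78, SE 0.13, limma adjusted p = 5.95e-08), an 18.3-fold lower FPKM mean. The contig was named for this difference, so its p-value supports nothing. From day 6 to day 9 it rose by 1.06 (SE 0.13) on the log2 scale (limma adjusted p = 0.00292), a call that was lost when the 4 libraries of these days were fitted alone (adjusted p = 0.159, the highest of 18 alternatives, with 0.00161 the lowest). Naming the contig for a low day 6 level favours such a rise.

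TRINITY_DN341_c0_g1_i13_2 did not return. It had 12.0 and 20.2 FPKM on day 0, against 6.21 and 8.40 FPKM in the control. Its levels were 0.524 and 0.248 FPKM on day 3, 0.128 and 0.446 FPKM on day 6, and 0.0191 FPKM in day 9 library 1, while day 9 library 2 and both day 12 libraries were below 0.01 FPKM. All later libraries lay below both control libraries. On day 6 it was lower than the control (log2 change -2.69, SE 0.27, limma adjusted p = 2.55e-05), and day 9 against day 6 was not called (log2 change -0.34, SE 0.27, limma adjusted p = 0.480). This contig too was named for its low day 6 level, so the p-value against the control supports nothing. As a ratio, its day 0 libraries differed by more than those of the other named contigs.

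**Figure D3:**
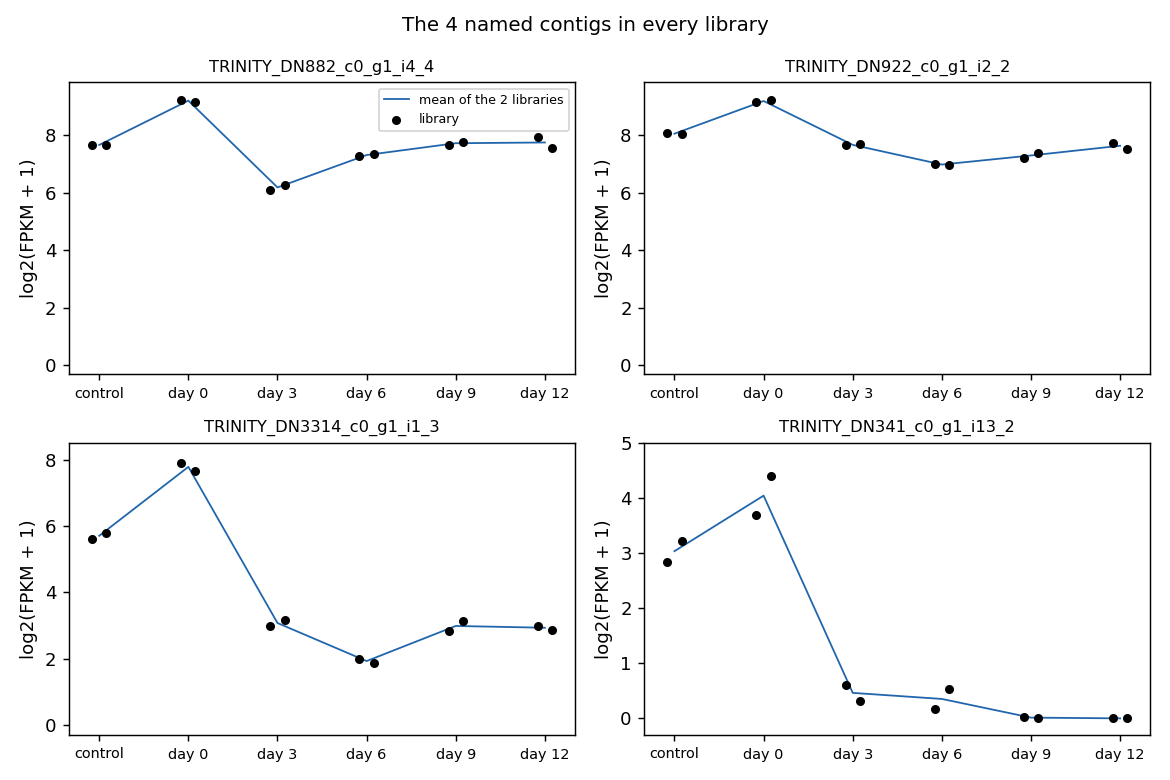
Levels of the 4 named contigs as log2(FPKM + 1), with points for the 12 libraries and a line through the mean of each group, and with a scale of its own in each panel. In all panels both day 0 points lie above both control points, and the day 12 points lie closer to the control in the upper panels than in the lower panels.

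Abundant members shared the loss by day 3 but not the later level. The 8 contigs with a day 0 mean of at least 100 FPKM had group means of 101 to 587 FPKM on day 0, against 10.9 to 266 FPKM in the control. All 8 were below the control mean on day 3. Of these 8, the mean lay above the control in 2 on day 6, in 4 on day 9 and in 3 on day 12. Across the 130 members the order of levels on day 0 resembled that in the control (Spearman's rho 0.877 across contigs) more than that on day 6 (0.587). These values describe contigs of shared libraries, and over all 17653 tested contigs they were 0.937 and 0.574.

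Between day 3 and day 6 the members moved in both directions. By limma, 32 of the 130 rose, by a median of 1.32 on the log2 scale, and 22 fell, by a median log2 change of -0.98, while 76 were not called. These are 24.6% and 16.9% of the members, against 31.2% and 14.4% of all tested contigs. The 32 that rose had a median of 5.66 and 5.64 FPKM in the day 6 libraries, against 1.23 and 1.22 FPKM on day 3. The 22 that fell had a median of 1.54 and 1.76 FPKM on day 6, against 4.06 and 4.74 FPKM on day 3. The day 3 libraries entered the choice of the members, which had to be low there, and this favours a rise. The share that rose was below that of all tested contigs, and the share that fell was near it.

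Day 9 against day 6 is the comparison in which none of the libraries had a part in choosing the members. By limma, 13 of the 130 contigs rose (10.0%), by a median of 0.84 on the log2 scale, and 1 fell (0.769%), against 5.05% rising and 1.5% falling among all tested contigs. The median change of all 130 was 0.06, against 0.03 for all tested contigs. The 13 that rose had median levels of 6.20 and 7.72 FPKM on day 9, against 2.95 and 2.66 FPKM on day 6. Their day 9 means stayed below their day 0 means in all 13, and 3 were still at less than 0.5 of the control mean. The contig that fell had 6.42 and 3.88 FPKM on day 9, against 10.5 and 9.70 FPKM on day 6.

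The number of these calls depended on which libraries were fitted. In all 13 rising contigs both day 9 libraries lay above both day 6 libraries. The count of 13 rising contigs was 2 when either day 6 library was left out, 6 when day 9 library 2 was left out and 8 when either control library was left out, and the single falling contig became 8 without day 9 library 1. That call was lost without either control library, either day 6 library, day 9 library 2 or either day 12 library. Among all tested contigs, the share called rising also fell without either day 6 library. The share called falling also grew without day 9 library 1. When limma was given only the 4 libraries of days 6 and 9, 0 members and 0% of all tested contigs were called. At an unadjusted p under 0.05, 20 members rose and 6 fell. Those unadjusted counts were not made over all tested contigs for this fit, so nothing is read from them.

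**Figure D4:**
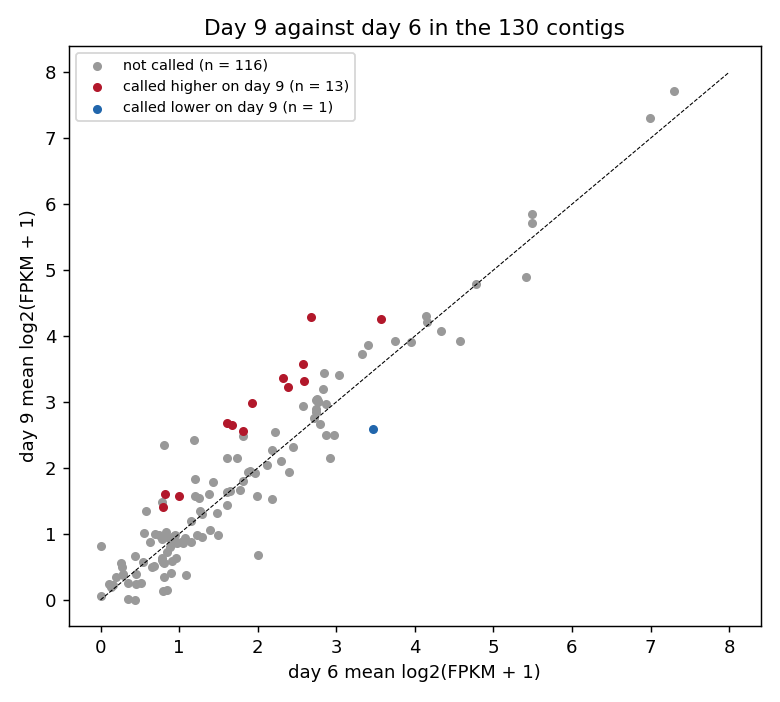
Each point is 1 of the 130 contigs, with its mean log2(FPKM + 1) on day 6 on the horizontal axis and on day 9 on the vertical axis, and the dashed line marks equal levels. The 13 contigs called higher by limma lie above the line at low to middle levels, with day 6 means of 0.739 to 10.9 FPKM.

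From day 9 to day 12 the members hardly moved. By limma 2 rose and 2 fell (1.54% each), against 2.84% and 1.94% of all tested contigs, and 126 were not called. The median change was -0.07 on the log2 scale, against 0.01 for all tested contigs. The 2 that rose had medians of 8.94 and 8.47 FPKM on day 12, against 1.99 and 1.67 FPKM on day 9. The falling count ranged from 0 to 13 when single libraries were left out, with 13 without day 9 library 2 and 4 when either day 3 library was left out, and it was 0 in each of the other 9 such fits. The rising count was 1 without day 12 library 1. Among all tested contigs, the falling share also grew without day 9 library 2 or either day 3 library, and shrank in the other such fits. The day 12 libraries entered the choice of the members.

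Against the control, most members lay lower on days 6 and 9. On day 6 limma called 79 of 130 lower (60.8%) and 9 higher (6.92%), against 38.5% and 30.6% of all tested contigs. On day 9 it called 70 lower (53.8%) and 15 higher (11.5%), against 36.6% and 31.5%. The 79 contigs had a median of 1.15 and 1.06 FPKM in the day 6 libraries, against 4.02 and 4.83 FPKM in the control. The same contigs had a median of 13.5 and 13.6 FPKM in the day 0 libraries. The 9 contigs called higher had a median of 5.92 and 5.82 FPKM on day 6, against 3.97 and 4.07 FPKM in the control. The count of 15 on day 9 was 8 without control library 1, 9 without control library 2 and 8 without day 9 library 1.

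A lower level than the control after day 3 was common among contigs well expressed on day 0. Among the 8198 contigs with at least 5 FPKM in both day 0 libraries, 55.6% were lower on day 6 and 55.9% on day 9, close to the shares of the members. The share of higher contigs was 22.8% on day 6 and 22.7% on day 9 in that set, above the shares of the members. Among the 3603 contigs that met every condition of the group except the rise on day 0, 85.7% were lower than the control on day 6 and 84.3% on day 9. Those conditions place every 1 of the 3603 below the control on day 3. Their shares on days 6 and 9 are thus favoured by the choice too. These shares were not tested against each other. The control libraries entered the choice of the members, which had to be low there relative to day 0, and the contrasts of days 6 and 9 share these control libraries. The conditions on days 3 and 12 favour lower levels, since they left out contigs raised on day 0 that stayed high or were raised again. Of those kept at day 3, 65.8% were called higher than the control on day 6. Of those raised again on day 12, 75% were. The gap between members and all tested contigs is thus partly set by the choice.

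**Figure D5:**
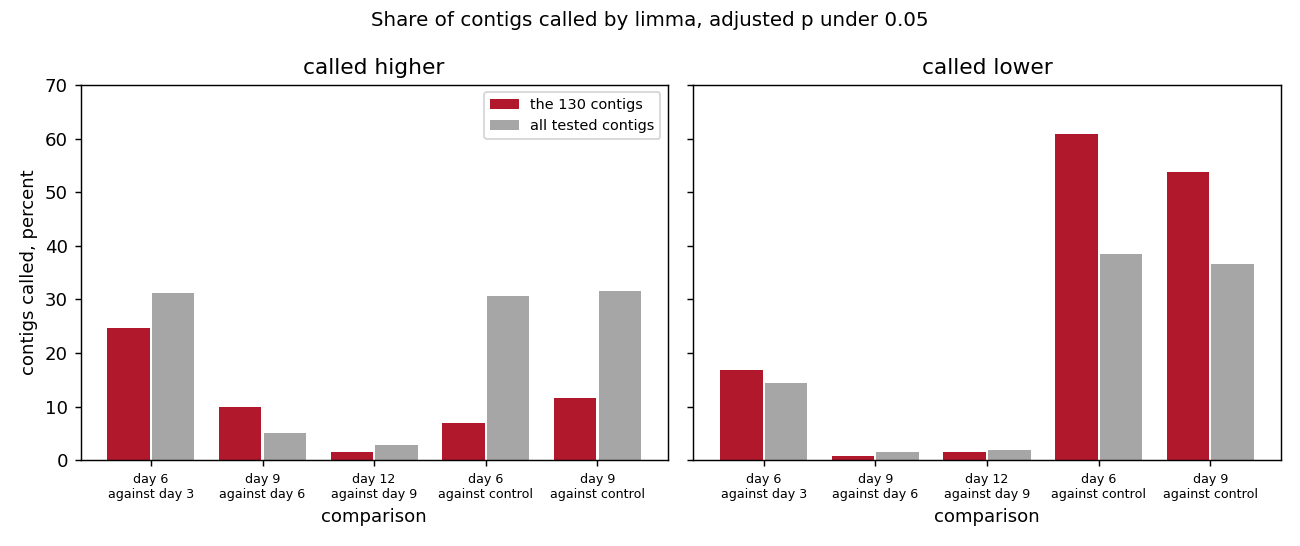
Bars give the percent of contigs that limma called higher (left) or lower (right) in 5 comparisons, in red for the 130 members and in grey for all 17653 tested contigs. The widest gaps are against the control, where 60.8% of the members and 38.5% of all tested contigs were lower on day 6.

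Members differed in how far they stayed below the control. On day 6, 15 lay at least 4-fold below it on the log2(FPKM + 1) scale, 40 between 2- and 4-fold below, 53 up to 2-fold below and 22 at or above it. On that day 42.3% of the members lay at least 2-fold below the control, against 27.0% of all 17653 tested contigs. At least 4-fold below it lay 15 of the 130 members (11.5%) and 1303 of the 17653 tested contigs. The deepest 15 members had a median of 0.745 and 0.606 FPKM on day 6, against 6.21 and 7.42 FPKM in the control. Of these 15, 12 were still at least 2-fold below the control on day 12, against 54 of all 130. Of the 22 at or above the control on day 6, 20 had a higher mean on day 6 than on day 3, against 73 of all 130. On day 12, 13 of the 22 were at or above the control, against 28 of all 130. The split was made on day 6 and control levels, so these counts are partly set by it. Over days 3, 6, 9 and 12 together, 33 members were at least 2-fold below the control on all 4 days, 57 on 1 to 3 of them and 40 on none of them. These courses were not counted over all tested contigs. On day 12 alone, 41.5% of the members and 26.3% of all tested contigs were at least 2-fold below the control. Of the 130, 18 were that far below the control on day 3 and on no later day, and 14 were that low on day 12 but not on day 3.

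The lowest level of a member came on different days. The lowest group mean was that of day 3 in 55 members, of day 6 in 34, of day 9 in 12, of day 12 in 27 and of the control in 2. Apart from day 0, the highest mean was that of the control in 82 members. A mean that rose at each step from day 3 to day 12 was found in 6 members and one that fell at each step in 9.

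The same day 0 rise was followed by other courses in other contigs. Of 238 contigs with at least 5 FPKM in both day 0 libraries and a rise of at least 1 over the control, 130 are the members, 76 had a day 3 mean less than 1 below that of day 0, and 32 lost the rise on day 3 and were raised again on day 12. The median day 0 rise was 1.23 in the members, 1.34 in the 76 contigs and 1.88 in the 32 contigs. From day 6 to day 9, 10.0% of the members rose by limma, against 22.4% of the 76 contigs and 34.4% of the 32 contigs, and these shares were not tested against each other. On day 6 the median difference from the control was -0.86 in the members, against 0.99 in the 76 contigs and 1.23 in the 32 contigs. The sets were split by their day 3 and day 12 levels, which favours such differences on the days between, so nothing is read from them.

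The contig names gave 1 feature that the choice of members did not use. Each name ends in a number, 1 to 4, that the labels do not explain. The number was 2 in 56 members, 3 in 50, 4 in 15 and 1 in 9, so 81.5% carried 2 or 3. Among all 8198 contigs with at least 5 FPKM on day 0 that share was 56.8%, among the 76 contigs with a day 3 mean less than 1 below day 0 55.3%, and among the 32 raised again 65.6%. The difference was not tested.

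The day 0 rise was also looked up in contigs with related names. The 130 members belonged to 130 different Trinity clusters, counting contigs with the same appended number, so none of the members was an isoform of another in these names. In 19 of these clusters the table held 26 further contigs, of which 19 were abundant enough to be tested. Their day 0 minus control ranged from -1.27 to 0.77 on the log2 scale with a median of 0.06, and none of the 19 reached 1, while 3 of the 7 that were too low to be tested did. Of contigs with the same cluster name but another appended number, 59 passed the filter, with a median of 0.002 and 4 at 1 or more. Of all 17653 tested contigs, 395 (2.24%) reached 1. A day 3 mean at least 1 below that of day 0 was found in 7 of the 19, in 13 of the 59 and in 31.6% of all tested contigs. These small counts were not tested against the shares of all tested contigs, so nothing is read from them. The sources used here do not say how fragments were divided between contigs of a cluster.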

How the data were processed

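The deposited table gives FPKM values computed by the authors, 1 column for each of the 12 libraries. The Trinity form of the contig names is read from the table; for assembly, abundance program and filters, the sources used here give nothing. The read depth of each library is unknown. With no annotation, no gene list or sequence could be used, and at most 4 contigs are named: the 2 members with the largest gain in FPKM on day 0, and the 2 others with the lowest day 6 minus control. The members and lists were chosen with earlier results of these data known.

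Values were analysed as log2(FPKM + 1), which understates the change of low contigs. Those averaging at least 1 FPKM (17653 contigs, all 130 members among them) were fitted with limma 3.58.1 in R 4.3.3 (group means of 12 libraries, eBayes with an intensity trend), with Benjamini-Hochberg adjustment over all tested contigs and a threshold of 0.05. The procedure was tested on simulated data. Python 3.11.15 selected the members. Whether the libraries of a group are separate cultures is not stated, so p-values reflect the spread between these libraries, possibly technical. Alternatives were another pseudocount, low-value filters, rescaled libraries, a replicate block, fits of 4 libraries and each library left out.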

Additional observations from a re-analysis of the deposited data

How the results depend on the processing

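The number of members was 130 as reported, 191 with a pseudocount of 0.1, 89 with rescaled libraries (all 89 of them members), 74 with at least 10 FPKM on day 0, and 112 to 241 with single libraries left out. Members called in a comparison were counted by limma. With single libraries left out the counts ranged from 2 to 15 higher and 0 to 8 lower for day 9 against day 6, from 1 to 3 higher and 0 to 13 lower for day 12 against day 9, from 8 to 16 higher for day 9 against the control, and from 70 to 80 lower for day 6 against the control. The share of all tested contigs called moved in such fits too. Fits of the 4 libraries of a comparison gave 0 higher and 0 lower for day 9 against day 6 and for day 12 against day 9. In both, 0% of all tested contigs were called. At an unadjusted p under 0.05, 20 members were higher and 6 lower in the first, and 5 and 10 in the second. These unadjusted counts were not made over all tested contigs. For day 9 against the control, 8 members and 31.1% of all tested contigs were higher in the fit of 4 libraries. A minimum mean of 5 FPKM kept 56 members for testing and gave 14 lower for day 6 against day 3, 2 lower for day 9 against day 6, 32 lower for day 6 against the control and 27 lower for day 9 against the control. A pseudocount of 0.1 gave 0 lower for day 12 against day 9. Rescaling moved the median of all tested contigs by 0.12 on day 6 and 0.13 on day 9 against the control, and 74 and 64 members were then lower.

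The labels do not say that the replicate numbers pair the libraries. The correlation of deviations from the group means was over 0.1 in 3 of 15 pairs of groups, which were days 3 and 6 (0.41), days 3 and 9 (0.25) and days 6 and 9 (0.28), and the lowest was -0.19. With the replicate number as a block, 29 members rose and 22 fell from day 3 to day 6, 10 rose from day 6 to day 9 and 78 were lower than the control on day 6, and 0 fell from day 9 to day 12. With 2 libraries a group and unknown read depth, changes of members near 0 FPKM were the least certain.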
